A study of Mus musculus with 11 samples.

Results

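The data are counts of reads per gene in BV2 cells given the amino-terminal fragment nApoE3, residues 1 to 151 of human apolipoprotein E3, and in the untreated BV2 cells grown for that experiment. The members were taken by sample title, as the 2 libraries titled ApoE3 and the 3 titled ControlB, which make 5 of the 11 samples of the series. BV2 is a transformed microglial line, labelled with the mouse strain C57BL/6. The fragment carries a His tag, came from a contract supplier and was given at 25 μg/mL for 5 h. The labels name a PBS vehicle for untreated cells and the study's methods name conditioned media, so which of them the ControlB cells received is not known. The other 6 samples are a separate experiment, with 3 libraries given the nApoE4 fragment at the same concentration and time and 3 untreated libraries of their own. That fragment differs from nApoE3 by 1 amino acid, a cysteine in nApoE3 and an arginine in nApoE4. The study used nApoE3 as the comparison fragment for nApoE4 and asked which microglial genes each of them moves.

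Microglia are the resident macrophages of the brain. They carry pattern recognition receptors, among them the Toll-like receptors, whose adaptors lead to NF-kB and to interferon regulatory factors. NF-kB drives genes for cytokines, chemokines and its own inhibitors, whereas secreted type I interferon acts through its receptor on a set of antiviral genes. Activated macrophages also shift iron, lipid and redox metabolism.

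The ControlB libraries held 69768666, 61124904 and 55809688 counts and the nApoE3 libraries 63563784 and 61191937, so that 3 counts, the floor used here, stood for 0.0414 to 0.0520 CPM (counts per 1000000 on library sizes scaled by TMM). The macrophage genes Spi1, Csf1r, Ptprc and Cd68 were read at 202 CPM or more in every library, whereas the microglial markers P2ry12 (listed at 0), Cx3cr1, Trem2, Aif1 and, with nApoE3, Tmem119 were under 2 CPM. Summed markers of neurons (1.20 to 1.67 CPM) and lymphocytes (1.33 to 1.94 CPM) were low in all 5 libraries, with 1 of 10 and 3 of 12 listed at 0. Those of astrocytes (1 of 10 at 0) summed to 40.6 to 45.3 CPM, of which 1 gene gave 34.7 to 43.6 CPM. Those of oligodendrocytes (4 of 10 at 0) summed to 36.2 to 42.3 CPM and those of endothelial cells and fibroblasts (1 of 12 at 0) to 141 to 159.8 CPM. In these lists 0 of 3, 1 of 3, 3 of 3, 1 of 3 and 3 of 6 tested genes passed, in that order, and their part in the results was not tested. Among genes of the lists described here, 71 were at 0 in every library, B2m among them, and 46 of those 71 overlap another gene in RefSeq, against 350 of the 1003 others. A value of 0 is therefore given only as listed at 0. Of the 205 genes named here and placed in RefSeq, 70 overlap another gene, among them Csf1r, Nfkb1, Ccl3, Ccl4, Traf1, Saa3 and Slc2a1, and their counts are uncertain because the strand setting of the counting is not given in the sources used here.

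With nApoE3, 10034 of 14817 genes tested (67.7%) passed an adjusted p of 0.05 in edgeR's quasi-likelihood test. Of all genes tested, 33.1% were higher and 34.6% lower, 9.6% were higher and 6.57% lower by more than 2-fold, and in 77.6% the 3 control and 2 treated libraries did not overlap. A test against a fold of 2 itself (edgeR's glmTreat) left 521 genes lower instead of 974. These shares are the background for every count of members given here. Genes near 0 in the controls pass the filter only through the nApoE3 libraries, which sets their call as higher in advance. Most changes were small. The median fold was 1.40 among the 4907 higher genes and 1.37 among the 5127 lower genes. The tails were unequal, since 611 genes rose and 185 fell by more than 4-fold, and 168 rose and 11 fell by more than 16-fold. In terms of reads, the genes higher by more than 2-fold took 2.60 to 2.69% of counts in the controls and 9.39 and 9.40% with nApoE3, and those lower by more than 2-fold went from 2.36 to 2.40% to 0.822 and 0.827%. Since these genes were chosen by that contrast, the shares only describe them. The study's methods state an average of 3 independent measurements, although the series holds 2 nApoE3 libraries. The labels do not say that the libraries came from separate cultures, so the p-values measure the spread between these samples, which may be technical.

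**Figure D1:**
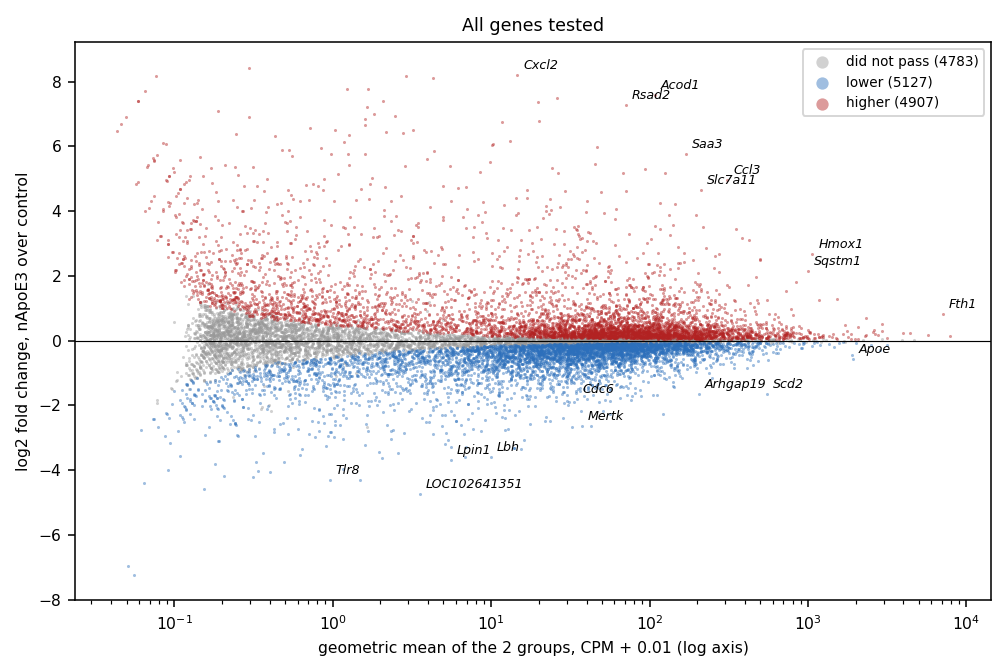
Log2 fold change with nApoE3 against the geometric mean of the 2 groups in CPM (log axis, 0.01 added), 1 point a gene, red for higher and blue for lower at an adjusted p under 0.05. The 4907 higher genes reach further from 0 than the 5127 lower genes, and Fth1, Hmox1 and Sqstm1 lie at the abundant end.

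Among receptors and adaptors of the Toll family, 14 of the 28 tested rose and 11 fell, with a median log2 fold change of 0.095 beside -0.0026 over all genes. Members moved in both directions. Tlr2, a receptor for bacterial lipoproteins, was at 189, 203 and 233 CPM in the controls and 1192 and 1155 CPM with nApoE3, a log2 fold change of 2.49 (SE 0.060, adjusted p = 3.08e-12). Cd14, the co-receptor that hands lipopolysaccharide to Tlr4, was at 31.6, 30.5 and 33.3 CPM in the controls and 369.3 and 364 CPM with nApoE3, a log2 fold change of 3.53 (SE 0.032, adjusted p = 1.08e-15). Tlr3, the endosomal receptor for double-stranded RNA, was at 14.5, 13.2 and 14.3 CPM in the controls and 63.0 and 59.4 CPM with nApoE3, a log2 fold change of 2.13 (SE 0.045, adjusted p = 8.78e-13). In these 3 genes each nApoE3 library lay far above each control library. Other members were lower. Tlr4, the lipopolysaccharide receptor itself, was at 62.8, 61.6 and 64.2 CPM in the controls and 35.4 and 37.1 CPM with nApoE3, a log2 fold change of -0.80 (SE 0.035, adjusted p = 8.15e-10). Tlr8, an endosomal receptor for single-stranded RNA, was at 4.29, 4.4 and 3.85 CPM in the controls and 0.234 and 0.189 CPM with nApoE3, a log2 fold change of -4.29 (SE 0.19, adjusted p = 7.62e-10), and Tlr9, for unmethylated DNA, at 7.29, 7.77 and 7.23 against 3.89 and 4.29 CPM, a log2 fold change of -0.86 (SE 0.086, adjusted p = 2.02e-06). The treated libraries were the low ones in all 3, with no overlap. The shared adaptor Myd88 rose by 1.12 and the kinase inhibitor Irak3 by 2.89 on the log2 scale, while Ticam2, which bridges Tlr4 to the interferon branch, fell from 26.4 ± 0.318 (SD, n = 3) to 15.5 ± 0.483 CPM (SD, n = 2).

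Genes listed with the sensors of nucleic acids in the cytosol, the adaptor gene Mavs and the inflammasome gene Nlrp3 among them, moved mostly upward. Of this list, 19 of the 23 tested rose and 3 fell, and the median was 2.64. Ddx58, which encodes the RNA sensor RIG-I, was at 5.31, 6.16 and 8.27 CPM in the controls and 117 and 109 CPM with nApoE3, a log2 fold change of 4.12 (SE 0.093, adjusted p = 1.59e-12). Ifih1, which encodes MDA5, a sensor of long double-stranded RNA, was at 9.52, 10.1 and 11.7 against 116 and 112 CPM, a log2 fold change of 3.46 (SE 0.054, adjusted p = 8.1e-14). Zbp1, a sensor of Z-form nucleic acid that can start necroptosis, was at 0.207, 0.0630 and 0.191 against 17.2 and 14.5 CPM, a log2 fold change of 6.66 (SE 0.19, adjusted p = 1.24e-11). Nlrp3, the inflammasome sensor, went from the 33.3 to 37.5 CPM of the controls to 510.1 and 509.8 CPM, a log2 fold change of 3.88 (SE 0.038, adjusted p = 1.93e-15). The treated libraries exceeded all controls in each of these genes. The members that fell were signalling hubs and a DNA sensor. They were Mavs, the mitochondrial adaptor of RIG-I and MDA5 (86.1, 86.2 and 87.2 against 56.1 and 56.5 CPM, log2 fold change -0.62), Tmem173, which encodes STING (61.6, 63.1 and 63.3 against 49.3 and 48.4 CPM, -0.36), and Aim2, which binds DNA (89.0, 88.3 and 91.3 against 84.2 and 82.9 CPM, -0.10). All 3 passed the test with adjusted p-values of 1.09e-09, 4.86e-07 and 0.00752, and none had overlapping libraries. The call of Aim2 was lost with all 11 samples in 1 edgeR fit (adjusted p = 0.0917). Without the second nApoE3 library its log2 fold change was -0.088.

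NF-kB subunits and their inhibitors rose together. Of this list, 21 of the 22 tested rose and 0 fell, with a median of 1.55. The subunit gene Nfkb1 was at 128, 130.1 and 134 CPM in the controls and 573 and 572 CPM with nApoE3, a log2 fold change of 2.13 (SE 0.024, adjusted p = 4.69e-15), and Relb, a subunit of the slower alternative pathway, at 16.6, 16.1 and 19.4 against 65.4 and 65.8 CPM, a log2 fold change of 1.92 (SE 0.057, adjusted p = 2.1e-11). Values were larger for 3 of the inhibitors. Nfkbia, which encodes the inhibitor IkB alpha, was at 41.4, 42.1 and 50.0 against 300.1 and 276 CPM, a log2 fold change of 2.70 (SE 0.061, adjusted p = 1.57e-12). Tnfaip3, which encodes the deubiquitinase A20 that ends NF-kB signalling, was at 13.6, 13.7 and 18.1 against 256 and 248 CPM, a log2 fold change of 4.07 (SE 0.073, adjusted p = 2.23e-13). Nfkbiz, a nuclear member of the inhibitor family that is needed for a set of secondary genes, was at 15.8, 16.4 and 17.1 against 228 and 214 CPM, a log2 fold change of 3.75 (SE 0.038, adjusted p = 2.47e-15). Libraries of the 2 groups were apart in all 5 genes. Among other feedback genes of cytokine and MAP kinase signalling, 17 of the 27 tested rose and 5 fell, with a median of 0.52. Usp18, which removes ISG15 from proteins and damps interferon receptors, was at 4.68, 4.92 and 6.24 against 96.5 and 89.2 CPM (4.15 on the log2 scale), Socs3, an inhibitor of JAK kinases, at 12.9, 13.3 and 12.3 against 72.6 and 64.2 CPM (2.41), Zc3h12a, an RNase of cytokine transcripts, at 8.35, 8.10 and 9.12 against 53.5 and 50.1 CPM (2.61), and Il1rn, the natural antagonist of interleukin 1, at 9.31, 9.08 and 11.6 against 238 and 247 CPM (4.61). The phosphatases were divided. Dusp1 was at 19.6, 20.4 and 24.8 against 65.3 and 67.9 CPM and Dusp8 at 0.207, 0.410 and 0.295 against 10.4 and 9.40 CPM, both higher, whereas Dusp6, which acts on ERK, was lower at 6.31, 6.10 and 5.08 against 2.25 and 2.68 CPM, a log2 fold change of -1.24 (SE 0.13, adjusted p = 2.54e-06).

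Promoters were read because members of 1 list moved together, and the stretches shown are those of the 3 members with the largest change whose upstream sequence held the motif. The sequences come from RefSeq, build GRCm38.p6, and only the 250 bases before the start site were searched, on both strands. The kB consensus of NF-kB dimers was present in 1281 of 32851 promoter windows (3.9%). It was present in 11 of 25 windows of the NF-kB list, which covered 17 of its members, in 2 of 8 windows of CC chemokines, in 1 of 4 of CXC chemokines and in 3 of 25 of cytokines. The motif is in capitals in the 60 bases shown for Cxcl2 (chr5:90903778-90903837, plus strand), a neutrophil chemokine, for Tnfaip3 (chr10:19015411-19015470, minus strand) and for Tnip3 (chr6:65590319-65590378, plus strand), an inhibitor that works with A20, each written 5′ to 3′ on the strand of the gene. Each of the 3 held 2 matches over both strands, and those of Cxcl2 and of Tnip3 overlap. A match describes the letters and is not a measured site.
Cxcl2: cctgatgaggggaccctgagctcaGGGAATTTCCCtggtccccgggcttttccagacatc
Tnfaip3: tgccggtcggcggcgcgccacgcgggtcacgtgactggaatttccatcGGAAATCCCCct
Tnip3: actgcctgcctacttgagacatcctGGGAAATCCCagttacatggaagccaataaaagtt

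Transcription factors of the interferon system moved in both directions. Of the IRF and STAT list, 11 of the 20 tested rose and 7 fell, with a median of 0.25. Irf7, the amplifier of type I interferon, was at 3.19, 3.26 and 5.03 CPM in the controls and 159 and 144 CPM with nApoE3, a log2 fold change of 5.33 (SE 0.095, adjusted p = 2.03e-13). Irf1 was at 30.6, 28.3 and 32.9 against 172 and 159 CPM, a log2 fold change of 2.44 (SE 0.049, adjusted p = 6.28e-13), and Stat2, a factor activated by interferon receptors, rose by 2.61 on the log2 scale. Irf8, a factor of microglial development, was lower, at 135, 133 and 135 against 73.2 and 66.4 CPM, a log2 fold change of -0.94 (SE 0.037, adjusted p = 2.74e-10). Stat5a fell too, at 18.7, 18.6 and 19.2 against 11.9 and 13 CPM and a log2 fold change of -0.59 (SE 0.050, adjusted p = 4.08e-07). In the list of AP-1, ATF, EGR and KLF factors, which also held C/EBP and MAF genes, 14 of the 27 tested rose and 11 fell, with a median of 0.50. Jun and Fos, partners in AP-1, went opposite ways. Jun was at 68.4, 64.9 and 70.0 against 112 and 109.6 CPM (0.71 on the log2 scale) and Fos at 12, 12.3 and 14.4 against 5.45 and 5.06 CPM (-1.29). Atf3, a repressor induced by stress and by Toll-like receptors, was at 109, 110.4 and 123 against 374 and 367.2 CPM, a log2 fold change of 1.70 (SE 0.041, adjusted p = 2.9e-12), and Batf2 at 0.607, 0.362 and 0.572 against 10.7 and 9.86 CPM, a log2 fold change of 4.31 (SE 0.15, adjusted p = 9.16e-11). Cebpa, a myeloid factor, was at 141, 139.7 and 141 against 41.5 and 44.0 CPM, a log2 fold change of -1.72 (SE 0.031, adjusted p = 2.49e-13). Spi1, which encodes PU.1, was higher instead, at 206, 202 and 217 against 431 and 410.1 CPM, a log2 fold change of 1.01 (SE 0.031, adjusted p = 2.74e-11). None of these genes had overlapping groups.

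**Figure D2:**
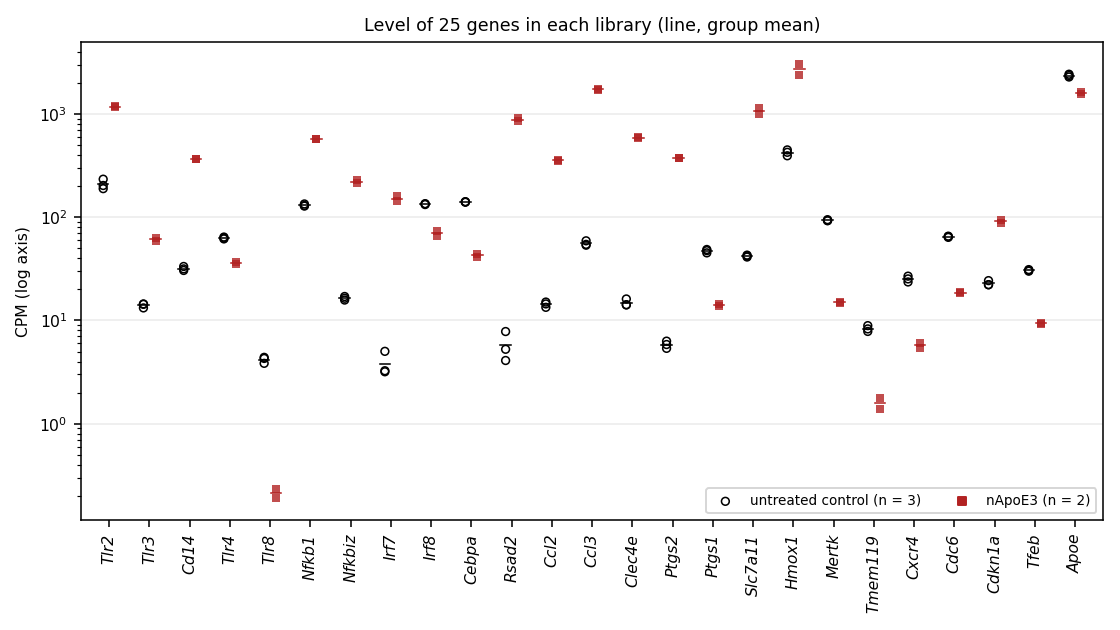
Level of 25 genes in CPM on a log axis in each library, open circles for the 3 untreated controls and red squares for the 2 nApoE3 libraries, with a line at each group mean. In every gene shown the 2 groups are apart, with Tlr8, Tmem119, Mertk and Cxcr4 among those that lie lower with nApoE3.

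Antiviral effectors were mostly higher, in that 47 of the 49 tested rose and 1 fell, 45 of the rises being above 2-fold, with a median of 3.18. Of the 56 members found in the files, 7 were not tested. Ifit1, 1 of these, is listed at 0 in all 5 libraries. Rsad2, which encodes viperin, was at 4.10, 5.26 and 7.82 CPM in the controls and 905 and 845 CPM with nApoE3, a log2 fold change of 7.29 (SE 0.11, adjusted p = 4.71e-14). Its neighbour Cmpk2, a mitochondrial nucleotide kinase, was at 1.31, 1.81 and 2.62 against 215 and 198 CPM, a log2 fold change of 6.79 (SE 0.10, adjusted p = 4.19e-14). Bst2, the tether of budding virus, started high and was at 67.1, 66.5 and 71.8 against 217 and 198 CPM, a log2 fold change of 1.60 (SE 0.042, adjusted p = 6.21e-12). The member that fell was Ifitm6, at 1.32, 1.24 and 1.42 against 0.667 and 0.774 CPM, a log2 fold change of -0.88 (SE 0.19, adjusted p = 0.00121). For Rsad2 and Cmpk2 the third control library was the highest of the 3, and still far under the treated libraries. Among the guanylate-binding proteins and immunity-related GTPases, which attack vacuoles that hold pathogens, 14 of the 15 tested rose and 0 fell. All 14 rose by more than 2-fold, and the median was 4.65. With at least 10 counts in every sample, 9 members were called. Gbp6 was at 0.11, 0.0788 and 0.277 against 27.7 and 24.2 CPM, a log2 fold change of 7.42. It passed the filter only through the nApoE3 libraries, so its p-value is not given. Irgm1, a regulator of the family and of autophagy, was at 3.71, 3.89 and 4.63 against 40.0 and 46.3 CPM, a log2 fold change of 3.41 (SE 0.081, adjusted p = 2.71e-12). Ifnb1, the gene of interferon beta, was at 0.0414, 0.11 and 0.156 against 1.25 and 1.24 CPM, a level near 1 CPM. Its log2 fold change was 3.63, and it too passed the filter only through the nApoE3 libraries.

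The interferon-stimulated response element, written GAAANNGAA, is a site of factors activated by type I interferon. It was present in 2342 of all 32851 promoter windows (7.13%) and in 8 of the 9 windows that cover 8 genes of the GTPase list. The share was 20 of 51 windows for 42 antiviral effectors and 6 of 26 for 18 genes of the nucleic acid sensor list. Capitals mark it in the stretches of Gbp5 (chr3:142496744-142496803, plus strand), Gbp2 (chr3:142620579-142620638, plus strand) and Rsad2 (chr12:26456538-26456597, minus strand), the candidates with the largest rise that hold it. In these and the stretches for the next motifs the match lies on the opposite strand, so the capitals are its reverse complement.
Gbp5: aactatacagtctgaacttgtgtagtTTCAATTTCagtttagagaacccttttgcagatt
Gbp2: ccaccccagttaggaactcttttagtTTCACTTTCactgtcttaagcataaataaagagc
Rsad2: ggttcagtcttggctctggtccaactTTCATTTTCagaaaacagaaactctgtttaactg

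CC chemokines, which draw monocytes and lymphocytes, had a median of 4.64, and 9 of the 11 tested rose and 1 fell. Members near 0 in the controls were tested only through the nApoE3 libraries, and the count of rises and the median include them. Ccl3, which attracts macrophages and other leukocytes, was at 54.6, 53.6 and 59.1 CPM in the controls and 1755 and 1703 CPM with nApoE3, a log2 fold change of 4.96 (SE 0.034, adjusted p = 2.11e-16). Ccl2, the main attractant of monocytes, was at 14.5, 13.4 and 15.1 against 362 and 351 CPM, a log2 fold change of 4.64 (SE 0.037, adjusted p = 4.02e-16), and Ccl7, which shares its receptor, at 1.60, 1.20 and 1.40 against 53.7 and 49.9 CPM, a log2 fold change of 5.20 (SE 0.074, adjusted p = 3.68e-14). Ccl4 rose less in proportion, at 34.3, 33.7 and 38.4 against 396 and 375 CPM, a log2 fold change of 3.44 (SE 0.043, adjusted p = 1.36e-14). In these 4 genes the treated libraries were all above the controls. Ccl24, an eosinophil attractant of alternatively activated macrophages, was the member that fell, at 6.49, 6.79 and 6.71 against 3.50 and 3.27 CPM, a log2 fold change of -0.97 (SE 0.089, adjusted p = 8.2e-07). Only 4 CXC chemokines were tested, of which 2 rose and 0 fell, and 1 was called with at least 10 counts in every sample. Ccl5 and Cxcl10 are listed at 0 in every library and give no value here. Of the chemokine receptors, 11 of the 15 tested rose and 3 fell, and 8 were called with at least 10 counts in every sample. Ccrl2, which binds chemerin without signalling, was at 1.01, 1.20 and 1.58 against 87.4 and 79.9 CPM, a log2 fold change of 6.07 (SE 0.085, adjusted p = 3.31e-14). Cxcr4, the receptor of CXCL12, was at 25.3, 23.6 and 26.9 against 6.05 and 5.42 CPM, a log2 fold change of -2.14 (SE 0.071, adjusted p = 6.04e-11). It was the treated libraries that were low in Cxcr4, without overlap.

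In the list of cytokines and their antagonists, 24 of the 30 tested rose and 1 fell, with a median of 1.93. A further 15 members were not tested, 9 of them listed at 0 in all 5 libraries. Members near 0 in the controls were tested only through the nApoE3 libraries, and with at least 10 counts in every sample 14 members were called. Il1a, which acts at cell surfaces and in the nucleus, was at 0.497, 0.425 and 0.381 against 17.9 and 19.1 CPM, a log2 fold change of 5.39 (SE 0.10, adjusted p = 3.12e-13). Il27, which restrains T cells, was at 0.124, 0.11 and 0.173 against 10.4 and 8.62 CPM, a log2 fold change of 6.13. It passed the filter only through the nApoE3 libraries, so its p-value is not given. Counts of Tnf were 1, 1 and 2 across the controls. They were 106 and 116 in the nApoE3 libraries, at least 40.1-fold higher against a floor of 3 counts in each control library. Tgfb1 and Igf1, growth factors that microglia make at rest, moved little, at 151, 157 and 162 against 179 and 177 CPM (0.18 on the log2 scale) and 88.6, 92.4 and 90.6 against 109 and 109 CPM (0.27), although both passed the test. Tnfsf13b, the B-cell factor BAFF, fell by 1.07 on the log2 scale. Of the cytokine and interferon receptors, 17 of the 30 tested rose and 7 fell, with a median of 0.25. Tnfrsf1b, the second receptor of TNF, was at 147, 142 and 148 against 1255 and 1238 CPM, a log2 fold change of 3.10 (SE 0.022, adjusted p = 2.22e-16), and Il15ra, which presents interleukin 15 to neighbouring cells, at 7.02, 6.48 and 6.97 against 32.1 and 31.5 CPM, a log2 fold change of 2.22 (SE 0.048, adjusted p = 1.11e-12). Il6ra was lower, at 37.2, 37.4 and 36.6 against 19.2 and 19.8 CPM, a log2 fold change of -0.93 (SE 0.038, adjusted p = 4.57e-10), and so was Tgfbr1, at 45.9, 46.1 and 45.3 against 31.4 and 32.2 CPM, a log2 fold change of -0.53 (SE 0.034, adjusted p = 2.92e-08).

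Antigen presentation by MHC class I was read only in part, because B2m and H2-T23 are listed at 0 and the low counts of H2-D1 and H2-K1, members of a family of near-identical genes, are uncertain. Of this list, 15 of the 20 tested rose and 2 fell, with a median of 0.81. Nlrc5, the transactivator of class I genes, was at 63.3, 60.9 and 62.7 CPM in the controls and 159.9 and 152 CPM with nApoE3, a log2 fold change of 1.32 (SE 0.031, adjusted p = 2.12e-12). Tap1, a subunit of the peptide transporter, was at 0.0966, 1.97 and 0.139 against 0.434 and 0.396 CPM and did not pass (-0.81 on the log2 scale, adjusted p = 0.461). The second control library stood apart with 125 counts against 7 and 8. Without that library the log2 fold change was 1.82. Of the class II list, 3 genes were tested, of which 1 rose and 2 fell. Ctss, a cysteine protease of the lysosome, was at 545, 547 and 561 against 595 and 588 CPM, a log2 fold change of 0.10 (SE 0.021, adjusted p = 0.000779), with no overlap. With all 11 samples in 1 fit its adjusted p was 0.297. Lgmn, another lysosomal protease, fell by 0.63 on the log2 scale. Among costimulatory and checkpoint molecules, 15 of the 20 tested rose and 4 fell, with a median of 1.31. Cd40, through which T cells signal to myeloid cells, was at 10.0, 11.7 and 12.1 against 430.2 and 388 CPM, a log2 fold change of 5.19 (SE 0.059, adjusted p = 5.55e-15). Cd274, which encodes PD-L1, was at 8.47, 9.12 and 9.19 against 94.3 and 91.1 CPM, a log2 fold change of 3.38 (SE 0.041, adjusted p = 9.33e-15), and Icam1, an adhesion molecule, at 79.9, 82.4 and 89.7 against 636 and 597 CPM, a log2 fold change of 2.88 (SE 0.041, adjusted p = 3.74e-14). Cd86 was lower, at 81.4, 80.1 and 86.1 against 63.2 and 63.2 CPM, a log2 fold change of -0.38 (SE 0.035, adjusted p = 8.28e-07), as was Havcr2, the checkpoint receptor TIM-3, at 11.6, 12.3 and 12.6 against 6.77 and 7.19 CPM, a log2 fold change of -0.80 (SE 0.063, adjusted p = 2.1e-07).

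Of the phagocytic, Fc and lectin receptors, 18 of the 27 tested rose and 7 fell, with a median of 0.87. Clec4e, which encodes the glycolipid receptor Mincle, was at 14.2, 14.1 and 16.2 CPM in the controls and 583 and 597 CPM with nApoE3, a log2 fold change of 5.32 (SE 0.040, adjusted p = 3.22e-16). Marco, a scavenger receptor of macrophages, was at 5.84, 5.86 and 5.43 against 79.4 and 79.3 CPM, a log2 fold change of 3.79 (SE 0.041, adjusted p = 4.06e-15). The Fc receptors did not move as 1 group. Fcgr2b, the inhibitory one, was at 24.3, 24.7 and 25.8 against 75.6 and 73.9 CPM, a log2 fold change of 1.58 (SE 0.035, adjusted p = 1.29e-12), Fcgr3, an activating one, was lower at 176, 178 and 187 against 103 and 103 CPM, a log2 fold change of -0.81 (SE 0.031, adjusted p = 2.24e-10), and Fcgr1 did not pass, at 84.3, 84.1 and 85.6 against 84.9 and 81.5 CPM (adjusted p = 0.49). Mertk, the receptor through which microglia engulf dying cells, was at 92.6, 92.8 and 94.6 against 14.9 and 15 CPM, a log2 fold change of -2.64 (SE 0.035, adjusted p = 2.31e-14). Cd33, an inhibitory lectin, was at 9.12, 8.76 and 10.2 against 3.94 and 4.23 CPM, a log2 fold change of -1.20 (SE 0.090, adjusted p = 1.33e-07). Among complement and secreted defence proteins, 19 of the 26 tested rose and 4 fell, with a median of 2.55. Saa3, an acute-phase protein, was at 22.7, 22.2 and 24.4 against 1306 and 1189 CPM, a log2 fold change of 5.76 (SE 0.045, adjusted p = 3.75e-16), and C3, the central complement component, at 64.7, 64.5 and 63.4 against 443 and 400.4 CPM, a log2 fold change of 2.71 (SE 0.037, adjusted p = 2.94e-14). Lcn2, which withholds iron from bacteria, was at 0.262, 0.488 and 0.243 against 32.2 and 28.8 CPM, a log2 fold change of 6.52 (SE 0.13, adjusted p = 3.95e-13). The protease inhibitor Timp2 fell, at 166, 161 and 165 against 86.3 and 86.6 CPM, a log2 fold change of -0.92 (SE 0.026, adjusted p = 1.13e-11). Libraries of the 2 groups did not overlap in any of these 4.

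Genes of cell death and its inhibitors went both ways. In the list of inflammasome and cell death genes, 23 of the 36 tested rose and 8 fell, with a median of 0.44. Traf1, an adaptor of TNF receptors, was at 1.02, 1.24 and 1.13 CPM in the controls and 120.0 and 122 CPM with nApoE3, a log2 fold change of 6.74 (SE 0.052, adjusted p = 3.75e-16), Birc3, which encodes the inhibitor of apoptosis cIAP2, at 24.9, 23.6 and 26 against 125 and 118 CPM, a log2 fold change of 2.29 (SE 0.040, adjusted p = 1.84e-13), and Bcl2a1d at 5.44, 5.63 and 5.58 against 89.5 and 87.3 CPM, a log2 fold change of 4.0 (SE 0.039, adjusted p = 1.93e-15). Bcl2a1d belongs to a family of near-identical copies, so the split of reads among them is uncertain. The death receptor Fas rose too, at 1.05, 1.04 and 1.68 against 25.6 and 23.5 CPM, a log2 fold change of 4.31 (SE 0.12, adjusted p = 9.22e-12), and so did Casp1, the inflammasome protease, at 76.4, 76.3 and 78.2 against 184 and 185 CPM, a log2 fold change of 1.26 (SE 0.025, adjusted p = 4.5e-13). Casp9, the initiator protease of the mitochondrial route of apoptosis, fell, at 34.1, 31.1 and 33.0 against 22.2 and 22.6 CPM, a log2 fold change of -0.55 (SE 0.046, adjusted p = 3.75e-07). No control library of these 6 genes lay within the range of the treated libraries.

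Enzymes that make small mediators moved in both directions. Among the enzymes of nitric oxide, arginine and itaconate, 12 of the 27 tested rose and 13 fell, with a median of -0.056. Gch1, which makes the cofactor of nitric oxide synthase, was at 5.33, 4.76 and 5.82 CPM in the controls and 57.2 and 55.2 CPM with nApoE3, a log2 fold change of 3.41 (SE 0.057, adjusted p = 1.31e-13), and Ass1, which regenerates arginine, at 5.62, 4.95 and 5.20 against 12.2 and 11.5 CPM, a log2 fold change of 1.17 (SE 0.074, adjusted p = 2.61e-08). Arg1, which competes for arginine, was low, at 0.455, 0.425 and 0.208 against 0.217 and 0.224 CPM, and did not pass (adjusted p = 0.116). The cytosolic dehydrogenases of isocitrate and malate were lower, Idh1 at 128, 133 and 129 against 88.7 and 92.6 CPM, a log2 fold change of -0.52 (SE 0.030, adjusted p = 1.09e-08), and Mdh1 at 389.9, 392 and 405 against 299.9 and 299.7 CPM, a log2 fold change of -0.40 (SE 0.023, adjusted p = 1.12e-08). Of the eicosanoid enzymes, 7 of the 16 tested rose and 5 fell, with a median of 0.13. The cyclooxygenases went opposite ways. Ptgs2, the inducible one, was at 5.85, 5.37 and 6.31 against 375 and 370.5 CPM, a log2 fold change of 6.00 (SE 0.039, adjusted p = 1.93e-16). Ptgs1, the constitutive one, was at 48.7, 47.5 and 45.2 against 13.7 and 14.5 CPM, a log2 fold change of -1.74 (SE 0.048, adjusted p = 9.28e-12). Alox5ap, which presents arachidonic acid for leukotriene synthesis, was lower, at 88.8, 86.8 and 88.4 against 55.7 and 56.5 CPM, a log2 fold change of -0.65 (SE 0.029, adjusted p = 8.93e-10). In none of the 3 did the groups overlap.

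Iron, heme and redox genes made up several of the largest gains in level. In the list of NRF2, heme and metal genes, 22 of the 30 tested rose and 5 fell, 13 by more than 2-fold, with a median of 0.90. Fth1, the heavy chain of ferritin, had the largest gain in CPM of all genes called, at 5227, 5367 and 5383 CPM in the controls and 9473 and 9502 CPM with nApoE3, a log2 fold change of 0.83 (SE 0.014, adjusted p = 1.71e-13). Hmox1, which breaks heme down, was second, at 425, 393 and 448 against 2359.6 and 3031 CPM, a log2 fold change of 2.67 (SE 0.080, adjusted p = 2.27e-11), and its treated libraries differed from each other by more than the controls did. Slc7a11, which imports cystine for glutathione, was at 42.9, 41.2 and 42.2 against 1004 and 1138 CPM, a log2 fold change of 4.67 (SE 0.046, adjusted p = 2.04e-15). Sqstm1, the autophagy receptor p62 that frees NRF2 from its inhibitor, was at 472, 459 and 496 against 2029.5 and 2185 CPM, a log2 fold change of 2.15 (SE 0.034, adjusted p = 8.1e-14). Srxn1, which repairs peroxiredoxins, was at 115, 115 and 121 against 503 and 603 CPM, a log2 fold change of 2.24 (SE 0.058, adjusted p = 5.41e-12), and Sod2, the mitochondrial superoxide dismutase, at 239, 238 and 242 against 943 and 918 CPM, a log2 fold change of 1.96 (SE 0.021, adjusted p = 3.14e-15). Treated libraries were above all controls in these 6 genes. Gclc, the catalytic subunit of glutathione synthesis, went the other way, at 266, 267 and 270.4 against 164 and 189 CPM, a log2 fold change of -0.60 (SE 0.046, adjusted p = 1.42e-07). Nqo1, often used as a marker of NRF2, was low, at 0.373, 0.315 and 0.468 against 1.23 and 2.03 CPM, a log2 fold change of 2.08 (SE 0.26, adjusted p = 1.53e-05). The antioxidant response element TGACNNNGC, which NRF2 binds with a small MAF protein, was present in 7 of 32 promoter windows of this list (24 genes) and in 3338 of all 32851 (10.2%). Capitals mark it in Txnrd1 (chr10:82859088-82859147, plus strand), Prdx1 (chr4:116685440-116685499, plus strand) and Gclm (chr3:122245397-122245456, plus strand). These encode a thioredoxin reductase, a peroxiredoxin and the modifier subunit of glutathione synthesis, and were the candidates with the largest rise that hold it.
Txnrd1: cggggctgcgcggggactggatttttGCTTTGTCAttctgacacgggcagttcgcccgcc
Prdx1: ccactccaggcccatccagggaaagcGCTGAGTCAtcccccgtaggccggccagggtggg
Gclm: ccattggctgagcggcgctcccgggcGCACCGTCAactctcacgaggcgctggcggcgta

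Other stress programmes moved less. Of the ATF4 and unfolded protein response genes, 11 of the 30 tested rose and 13 fell, with a median of -0.0099. Ppp1r15a, the phosphatase subunit that restores translation, was at 20.4, 21.1 and 23.6 against 71.3 and 73.1 CPM, a log2 fold change of 1.74 (SE 0.049, adjusted p = 1.2e-11), whereas Ddit3, which encodes CHOP, was at 32.2, 33.2 and 38.9 against 38.5 and 40.7 CPM, a log2 fold change of 0.19 (SE 0.066, adjusted p = 0.0223), with libraries that overlapped. The call of Ddit3 was lost without the first or the second control library (adjusted p of 0.103 and 0.0698). Without the second nApoE3 library its log2 fold change was 0.15. Hspa5, the main chaperone of the endoplasmic reticulum, was at 679.6, 692 and 719.9 against 939 and 915 CPM, a log2 fold change of 0.41 (SE 0.025, adjusted p = 1.59e-08). Of the heat shock proteins, 11 of the 16 tested rose and 2 fell, and Hspa8, the constitutive HSP70, was at 2288, 2313 and 2392 against 3009.8 and 2908 CPM, a log2 fold change of 0.34 (SE 0.021, adjusted p = 1.96e-08). Among glycolytic genes and hypoxia targets, 17 of the 35 tested rose and 14 fell, with a median of 0.048. Slc2a1, the glucose transporter GLUT1, was at 48.8, 49.6 and 55.9 against 166 and 143 CPM, a log2 fold change of 1.59 (SE 0.061, adjusted p = 2.38e-10), and Pfkfb3, an activator of glycolysis, at 39.1, 38.8 and 37.5 against 79.3 and 78.6 CPM, a log2 fold change of 1.04 (SE 0.031, adjusted p = 2.22e-11). Ndrg1, a hypoxia target, was lower, at 43.8, 43.2 and 43.9 against 22.1 and 21.5 CPM, a log2 fold change of -1.0 (SE 0.036, adjusted p = 1.35e-10), and the enzyme Ldha was nearly level, at 1472, 1441 and 1502 against 1623 and 1482 CPM, a log2 fold change of 0.077 (SE 0.032, adjusted p = 0.0473), with overlapping libraries.

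The cells' own Apoe transcript, the mouse counterpart of the protein from which the fragment is cut, fell. It was at 2353, 2278 and 2423 CPM in the controls and 1616 and 1549 CPM with nApoE3, a log2 fold change of -0.57 (SE 0.026, adjusted p = 1.04e-09), which was the largest loss in CPM of any gene called. No treated library reached a control library. Among Apoe, lipid efflux genes and receptors of apolipoprotein E, 10 of the 27 tested rose and 11 fell, with a median of -0.063. Lrp1, an endocytic receptor for apolipoprotein E, was at 269, 275 and 264 against 184 and 182 CPM, a log2 fold change of -0.56 (SE 0.024, adjusted p = 7.41e-10). Sdc4, a heparan sulfate proteoglycan of the kind that also binds apolipoprotein E, was at 100.4, 103 and 116 against 1220.5 and 1099 CPM, a log2 fold change of 3.45 (SE 0.054, adjusted p = 7.8e-14). The efflux transporters diverged. Abca1, which loads cholesterol onto lipid-poor apolipoproteins, was at 125, 127 and 125 against 205 and 197 CPM, a log2 fold change of 0.68 (SE 0.025, adjusted p = 1.58e-10), and Abcg1 at 102, 104 and 98.8 against 68.8 and 63.0 CPM, a log2 fold change of -0.62 (SE 0.038, adjusted p = 1.94e-08). Of the genes of sterol and fatty acid synthesis, 15 of the 30 tested rose and 9 fell, with a median of 0.060. Scd2, a desaturase of fatty acids, was at 982, 975 and 969.9 against 321 and 299 CPM, a log2 fold change of -1.65 (SE 0.028, adjusted p = 1.24e-13), the second largest loss in CPM. Elovl6, which elongates fatty acids, and Srebf1, which drives their synthesis, fell by 0.80 and 0.63 on the log2 scale.

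Lysosomal genes were among the other large losses, although their folds were small. Psap, a precursor of activators of lipid breakdown, was at 2235, 2160.2 and 2235 against 1629.6 and 1620.5 CPM, and Ctsd, an aspartyl protease, at 3128, 3057 and 3202 against 2570.3 and 2593 CPM, log2 fold changes of -0.44 and -0.28. Ctsb, a cysteine protease, rose instead, at 2295, 2295 and 2376 against 2843 and 2812 CPM, a log2 fold change of 0.28 (SE 0.018, adjusted p = 2.92e-08). Of the lysosome and autophagy list, 13 of the 39 tested rose and 18 fell, with a median of -0.10. With all 11 samples in 1 fit, 19 of its members passed instead of 31. Tfeb and Mitf, factors that control lysosomal genes, went opposite ways. Tfeb was at 31.1, 30.5 and 30 against 9.26 and 9.50 CPM, a log2 fold change of -1.70 (SE 0.045, adjusted p = 7.1e-12), and Mitf at 27.5, 28.2 and 28.1 against 53.7 and 53.6 CPM, a log2 fold change of 0.94 (SE 0.033, adjusted p = 8.34e-11), with no overlap in either. Their relative Tfe3, named after its values were seen, was at 15.9, 15 and 16.4 against 17.5 and 17.1 CPM, a log2 fold change of 0.14 (SE 0.049, adjusted p = 0.0269). Its call was lost without the first or second control library or either nApoE3 library (adjusted p of 0.0502 to 0.116), with all 11 samples in 1 fit (0.111), with DESeq2 (0.175) and with at least 1 count over the samples (0.0551).

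**Figure D3:**
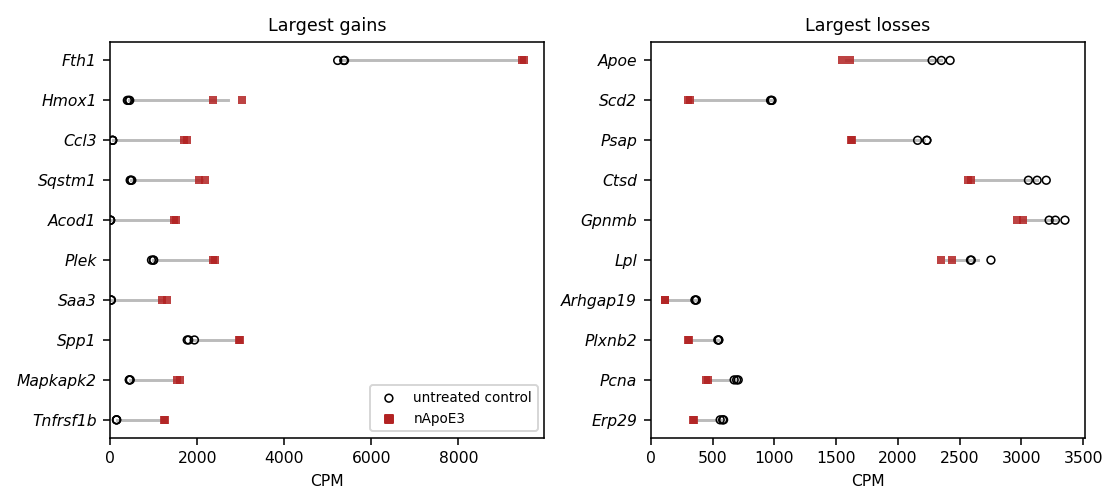
Level in CPM of the 10 genes with the largest gain and the 10 with the largest loss in mean CPM with nApoE3, with open circles for the 3 controls, red squares for the 2 nApoE3 libraries and grey lines between group means. Fth1 and Hmox1 lead the gains and Apoe and Scd2 the losses, and no gene shown has overlapping groups.

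Genes of microglial and macrophage identity were mostly lower, in that 6 of the 22 tested rose and 13 fell, with a median of -0.32. Tmem119, which marks resident microglia, was at 8.91, 8.29 and 7.83 CPM in the controls and 1.78 and 1.38 CPM with nApoE3, a log2 fold change of -2.40 (SE 0.12, adjusted p = 2.82e-09). Csf1r, the receptor on which microglia depend for survival, was at 757, 737 and 769 against 683 and 675 CPM, a log2 fold change of -0.15 (SE 0.022, adjusted p = 4.82e-05), and Itgam, the integrin CD11b, at 79.3, 77.5 and 79.6 against 65.0 and 62.8 CPM, a log2 fold change of -0.30 (SE 0.030, adjusted p = 1.9e-06). Ptprc, which encodes CD45, and Adgre1, which encodes F4/80, were higher, at 227, 231 and 231 against 419 and 418 CPM, a log2 fold change of 0.87 (SE 0.021, adjusted p = 2.57e-12), and at 279.6, 279 and 284 against 448 and 448 CPM, a log2 fold change of 0.67 (SE 0.020, adjusted p = 2.47e-11). The treated libraries lay on 1 side of the controls in each of these 5 genes. Another microglial marker, Cx3cr1, was low in every library and moved opposite to Tmem119. It was at 0.138, 0.189 and 0.225 against 0.717 and 0.447 CPM, a log2 fold change of 1.67 (SE 0.34, adjusted p = 0.000861). Fewer cells of a kind and less RNA per cell cannot be told apart in these bulk samples. Of the purine and other G-protein-coupled receptors, 8 of the 22 tested rose and 11 fell. P2ry1, an ADP receptor, was at 49, 50.5 and 51.2 against 9.34 and 10.1 CPM, a log2 fold change of -2.37 (SE 0.047, adjusted p = 4.78e-13), P2rx7, an ATP-gated channel, at 80.7, 82.5 and 81.2 against 49.2 and 47.7 CPM, a log2 fold change of -0.75 (SE 0.030, adjusted p = 3.74e-10), and S1pr1, a receptor of sphingosine phosphate, at 11.4, 11 and 12 against 3.99 and 4.23 CPM, a log2 fold change of -1.48 (SE 0.073, adjusted p = 2.37e-09). Higher ones were Gpr84, a receptor of medium-chain fatty acids, at 8.07, 8.90 and 10.1 against 184 and 173 CPM, a log2 fold change of 4.31 (SE 0.058, adjusted p = 2.3e-14), and Hcar2, a receptor of hydroxybutyrate, at 10.5, 11.4 and 12.3 against 114 and 107 CPM, a log2 fold change of 3.29 (SE 0.050, adjusted p = 6.02e-14).

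The steepest falls among genes with at least 10 CPM in the controls lay outside the lists. LOC102641351 was at 18.1, 18.8 and 17.7 CPM in the controls and 0.634 and 0.740 CPM with nApoE3, a log2 fold change of -4.73 (SE 0.089, adjusted p = 3.18e-13). Lpin1, a phosphatidate phosphatase of lipid synthesis, was at 20.3, 19.5 and 19.4 against 1.43 and 1.67 CPM, a log2 fold change of -3.67 (SE 0.076, adjusted p = 7.11e-13). Lbh, a regulator of transcription, was at 34.6, 33.9 and 35.4 against 2.95 and 2.81 CPM, a log2 fold change of -3.59 (SE 0.057, adjusted p = 9.27e-14). The others of the 10 steepest were Zfp395, Abcd2, a peroxisomal fatty acid transporter, Klhl6, St6gal1, a sialyltransferase, Thbd, which encodes the anticoagulant thrombomodulin, Nat8l and the noncoding 9630028I04Rik, with log2 fold changes from -3.60 to -3.20. In all 10 the treated libraries were under 5 CPM. Arhgap19, a GTPase-activating protein of RhoA in dividing cells, lost more CPM than any of them, at 357, 369.4 and 363 against 115 and 117 CPM, a log2 fold change of -1.65 (SE 0.025, adjusted p = 6.02e-14).

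Genes of DNA replication fell almost as a list, in that 42 of the 46 tested fell and 2 rose, 8 of the falls by more than 2-fold, with a median of -0.64. Cdc6, which loads the MCM helicase at origins, was at 64.9, 65.5 and 63.8 CPM in the controls and 18.4 and 18.8 CPM with nApoE3, a log2 fold change of -1.80 (SE 0.036, adjusted p = 5.11e-13). E2f2, an activator of S-phase genes, was at 60.3, 61.2 and 57.7 against 16.6 and 15.6 CPM, a log2 fold change of -1.89 (SE 0.043, adjusted p = 1.81e-12), and Gmnn, which encodes geminin and blocks a second licensing, at 95.0, 94.2 and 95.2 against 31.0 and 29.4 CPM, a log2 fold change of -1.65 (SE 0.033, adjusted p = 5.73e-13). The helicase subunit Mcm2 was at 266, 266 and 269 against 150.0 and 149 CPM, a log2 fold change of -0.84 (SE 0.022, adjusted p = 7.21e-12), and the sliding clamp Pcna at 708, 675 and 695 against 465 and 449.6 CPM, a log2 fold change of -0.60 (SE 0.025, adjusted p = 4.78e-10). Every treated library was below every control library in these 5 genes. The 2 that rose were Orc2 and Pola2, by 0.19 and 0.13 on the log2 scale. An E2F site, TTTCCCGC or TTTGGCGC, was present in 6 of 46 windows for 37 genes of this list and in 427 of all 32851 (1.3%). It is in capitals in Cdc6 (chr11:98907987-98908046, plus strand), Mcm7 (chr5:138172015-138172074, minus strand) and Mcm5 (chr8:75109334-75109393, plus strand), the 3 candidates with the steepest fall that hold it.
Cdc6: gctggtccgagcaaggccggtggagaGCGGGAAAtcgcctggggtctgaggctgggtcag
Mcm7: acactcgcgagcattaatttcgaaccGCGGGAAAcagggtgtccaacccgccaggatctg
Mcm5: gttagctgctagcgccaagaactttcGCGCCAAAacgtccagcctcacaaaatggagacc

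Regulators of the G1 phase moved in both directions. Among G1 cyclins and CDK inhibitors, 9 of the 26 tested rose and 14 fell, with a median of -0.25. Ccnd1, which encodes cyclin D1, was at 113, 110.4 and 109 against 50.0 and 50.5 CPM, a log2 fold change of -1.14 (SE 0.030, adjusted p = 5.65e-12), and Ccne1, which encodes cyclin E1, at 64.7, 66.9 and 67.0 against 26.3 and 26.4 CPM, a log2 fold change of -1.33 (SE 0.034, adjusted p = 5.78e-12). Cdkn1a, which encodes the CDK inhibitor p21, was higher, at 22.2, 22.2 and 24.3 against 94.1 and 87.6 CPM, a log2 fold change of 1.99 (SE 0.045, adjusted p = 1.5e-12), and so was Btg2, an antiproliferative gene, at 2.84, 2.95 and 3.07 against 20.8 and 18.9 CPM, a log2 fold change of 2.75 (SE 0.069, adjusted p = 4.37e-12). The inhibitor Cdkn2c was lower, at 38.6, 39.1 and 40.2 against 14.1 and 14.2 CPM, a log2 fold change of -1.47 (SE 0.041, adjusted p = 1.11e-11). Mitotic genes did not fall as a list. Of these, 11 of the 36 tested rose and 18 fell, with a median of -0.13 and no change above 2-fold. Ccnb1, which encodes cyclin B1, was at 212, 217 and 217 against 266 and 264 CPM, a log2 fold change of 0.30 (SE 0.022, adjusted p = 1.18e-07), Bub1b, of the spindle checkpoint, at 302, 299 and 302 against 210.4 and 209 CPM, a log2 fold change of -0.52 (SE 0.021, adjusted p = 3.99e-10), and Plk1 did not pass, at 179, 179 and 174 against 176 and 171 CPM (adjusted p = 0.302). Of the subunits of oxidative phosphorylation, 0 of 47 rose and 26 fell, with a median of -0.11, and Ndufs1, of complex I, was at 156, 156 and 156 against 132 and 132 CPM, a log2 fold change of -0.24 (SE 0.023, adjusted p = 1.54e-06). The falls in this list did not reach 2-fold, and with all 11 samples in 1 fit 10 of its members passed.

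**Figure D4:**
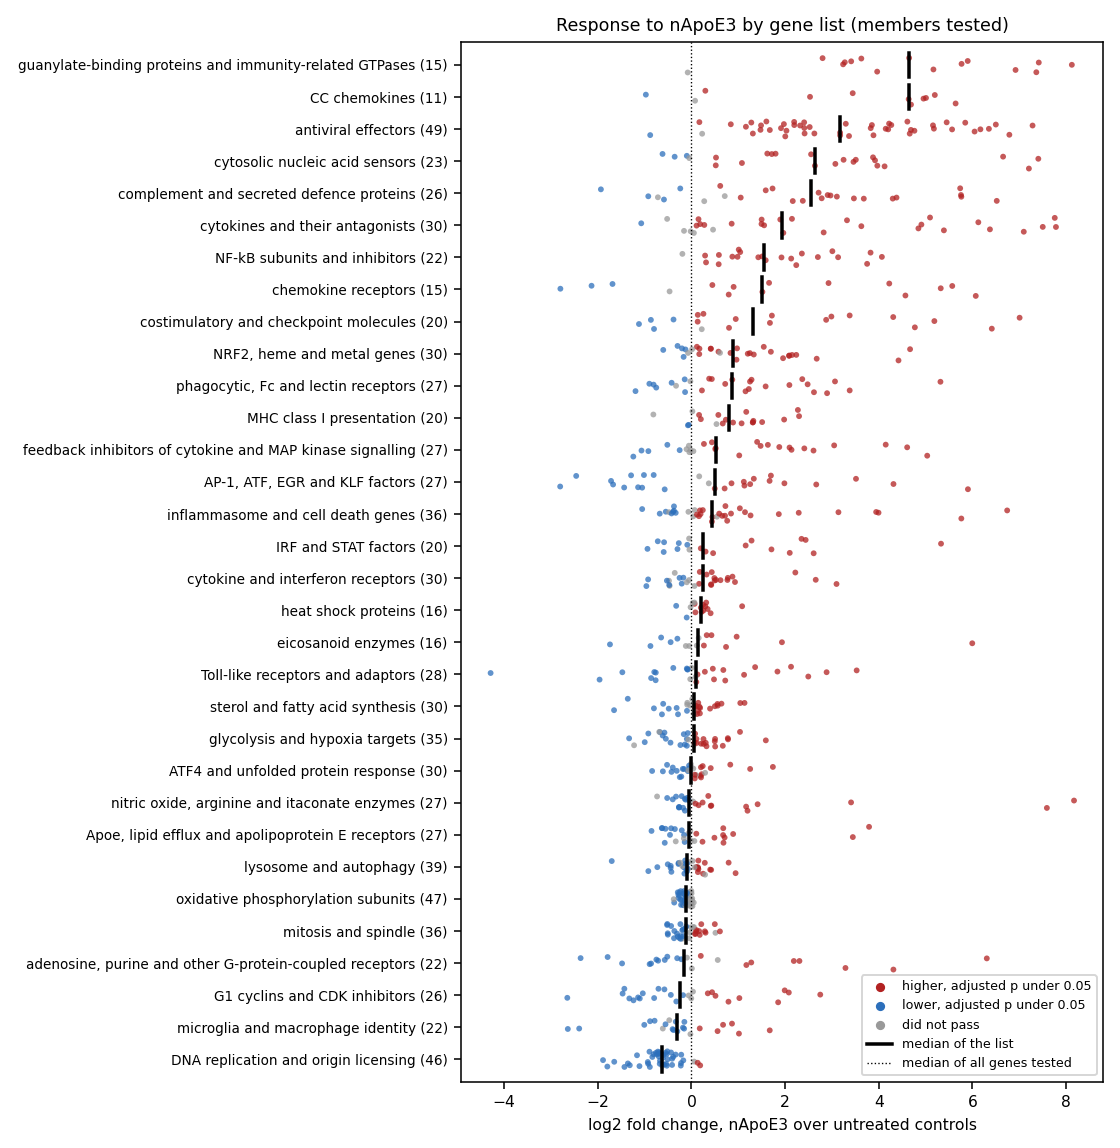
Log2 fold change with nApoE3 of the tested members of 32 lists (number tested in parentheses), 1 point a gene, red for higher, blue for lower and grey for genes that did not pass an adjusted p of 0.05, with a bar at the list's median and a dotted line at the median of all genes. GTPases, CC chemokines and antiviral effectors have the highest medians and DNA replication the lowest, and the lists in between hold genes on both sides of 0. The medians of GTPases and CC chemokines include genes near 0 in the controls, which were tested only through the nApoE3 libraries.

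The 2 nApoE3 libraries were close to each other but not the same. Of the 1423 genes higher by more than 2-fold, the first library was above the second in 817, and in 136 the libraries differed by more than 1.5-fold. Of the 974 genes lower by more than 2-fold, it was above in 460, and 140 differed that much. Over all 14817 genes tested these counts were 7852 and 1041. The largest ratios among called genes at 10 CPM or more belonged to Rnaset2b (9.01, 8.71 and 9.41 against 20.8 and 9.72 CPM), Nos2 (0.152, 0.189 and 0.156 against 59.8 and 36.6 CPM), Gm5601 (27.6, 35.1 and 29.2 against 28.3 and 19.3 CPM), Bnip3 (62.5, 63.9 and 75.4 against 97.0 and 68.6 CPM) and Ifi30 (105, 118 and 92.6 against 64.5 and 88.6 CPM). Nos2, the inducible nitric oxide synthase, was far above the controls in both libraries, whereas the control and treated libraries of Gm5601 and Bnip3 overlapped. With DESeq2 the calls of Rnaset2b, Gm5601, Bnip3 and Ifi30 were lost (adjusted p of 0.103, 0.212, 0.265 and 0.056). Without the first nApoE3 library the log2 fold changes of Rnaset2b and Bnip3 were 0.11 and 0.034. At the other end of the scale, 79 tested genes held 3 counts or fewer in every control, and all 79 were called higher, which their way of passing the filter fixes. The 5 with the highest treated level were Gm41236, Gm4951, Tnf, Il1f9 and 1700011B04Rik. Measured against the floor, Gm41236 was at least 90.6-fold, Gm4951 at least 58.6-fold, Il1f9, a cytokine of the interleukin 1 family, at least 36.1-fold and 1700011B04Rik at least 29.1-fold higher.

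The response to nApoE3 was set beside that to nApoE4 as an interaction over all 11 samples, which compares the change from each fragment's own controls. It passed for 28.3% of 15287 genes, 13.9% with a response to nApoE3 above that to nApoE4 and 14.4% below. Fragment and experiment cannot be told apart, because the experiments had separate controls. Of the listed genes for glycolysis and hypoxia, 29 of 36 were above and 1 below. The median log2 fold change of this list was 0.048 with nApoE3 and -0.57 with nApoE4. In Slc2a1 the mean level went from 52.7 to 159 CPM with nApoE3 and from 233 to 91.2 CPM with nApoE4, a difference of response of 2.94 (SE 0.10, adjusted p = 3.15e-09). In Hk2, which starts glycolysis, it went from 134 to 190.4 and from 164 to 67.9 CPM, a difference of 1.78 (SE 0.080, adjusted p = 1.54e-08). The untreated cells of the experiments differed in this list. In 31 of the 36 genes (86.1%) each control library of the nApoE4 experiment was above each control library of nApoE3, against 35.1% of all genes, and Bnip3, a hypoxia target of mitophagy, stood at 385 and 68.9 CPM in the 2 control groups. The part of this gap in the difference of response was not tested.

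In the NRF2, heme and metal list, 12 of 30 genes were above and 2 below. In 19 of these 30 genes every nApoE4 control was below every nApoE3 control, and in 7 above, against 5599 and 5364 of 15287 genes, and the part of this gap in the difference of response was not tested. The log2 fold change of Slc7a11 was 4.67 with nApoE3 and 4.76 with nApoE4, a difference of -0.077 (SE 0.095, adjusted p = 0.598) that did not pass. The responses of Hmox1 differed. Its mean level was 433 and 2776 CPM without and with nApoE3, and 625 and 413 CPM without and with nApoE4, a difference of 3.28 (SE 0.14, adjusted p = 8.65e-09). The genes of sterol and fatty acid synthesis were more often below, with 0 of 30 above and 17 below, and medians of 0.060 with nApoE3 and 0.45 with nApoE4. Every nApoE4 control was above every nApoE3 control in 14 of these 30 genes, and below in 9. The part of this gap was not tested here either. Scd2 fell further with nApoE3, a difference of -0.54 (SE 0.073, adjusted p = 0.000128). In the ATF4 and unfolded protein response list, 2 of 30 were above and 12 below. For control levels, 12 of the 30 had every nApoE4 control above every nApoE3 control, and 13 had every one below. Ddit3 rose by 0.19 with nApoE3 and 1.81 with nApoE4, a difference of -1.61 (SE 0.10, adjusted p = 1.79e-07), and Atf4 by 0.22 and 0.87, a difference of -0.65 (SE 0.11, adjusted p = 0.000635). Inflammatory lists were mixed, beside 13.9% above and 14.4% below over all genes. Antiviral effectors had 26 of 50 above and 5 below, and the nucleic acid sensor list 13 of 23 and 2. Cytokine and interferon receptors had 14 of 31 above and 2 below, and the Toll list 12 of 29 and 1. The NF-kB list had 4 of 22 above and 11 below, and costimulatory molecules 5 of 22 and 9. Cytokines and their antagonists had 6 of 31 above and 3 below, and inflammasome and cell death genes 5 of 35 and 10. Control levels of these lists were not set side by side. Among single genes, Ccl2 rose more with nApoE3, by 2.16 (SE 0.15, adjusted p = 3.74e-07) on the log2 scale. Irf1 rose less, at -1.26 (SE 0.091, adjusted p = 6.52e-07). The replication list had 7 of 46 above and 10 below, and its control levels were not set side by side either. Within it, Cdc6 differed by 0.062 (SE 0.077, adjusted p = 0.598), which did not pass. E2f2 differed by -0.51 (SE 0.083, adjusted p = 0.000573). For Apoe the difference was -0.23 (SE 0.093, adjusted p = 0.0887) and did not pass either.

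**Figure D5:**
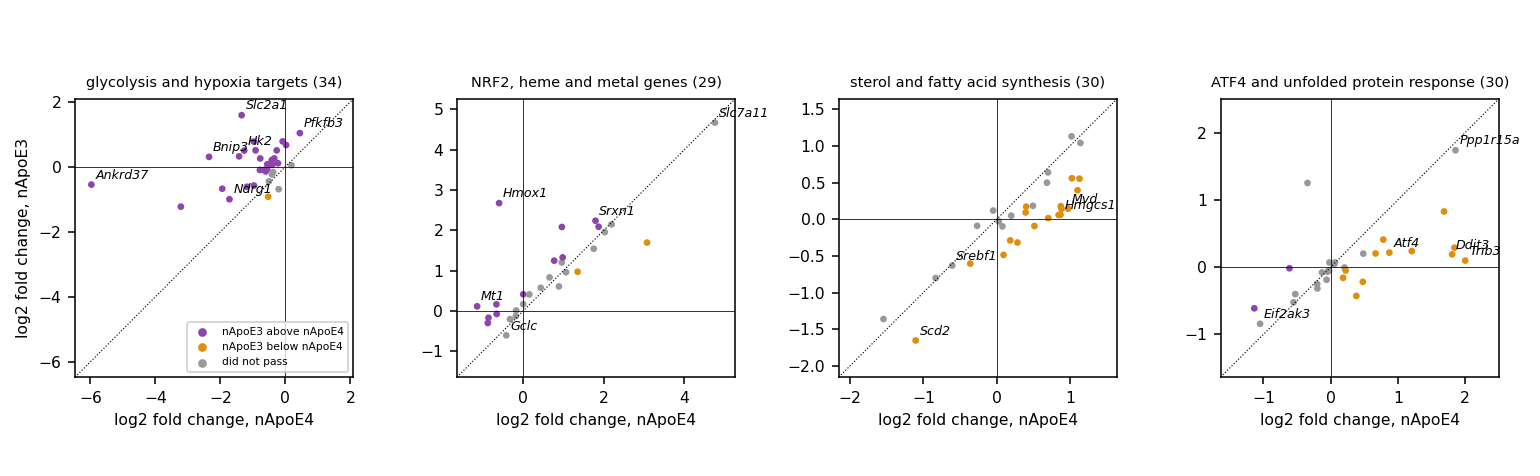
Log2 fold change with nApoE3 (vertical) against that with nApoE4 (horizontal), each from its own controls, for genes of 4 lists (34, 29, 30 and 30 genes with both values), purple where the response to nApoE3 was above and orange where it was below in the interaction at an adjusted p under 0.05, with a dotted line of equal response. Glycolysis and hypoxia targets lie mostly above that line and sterol genes mostly on or below it, and Hmox1 stands apart from the other NRF2 and heme genes.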

How the data were processed

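BV2 RNA was sequenced as single-end reads. The authors trimmed reads with Trim Galore 0.5.0, checked them with FastQC 0.11.8, aligned them to GRCm38.p6 with HISAT2 2.1.0 and counted them per gene with HTSeq 0.11.0. The deposited values are raw counts per gene and library, and the annotation release, strand setting and overlap mode are not given in the sources used here. Rows of unassigned reads were left out, so that 77.4 to 77.7% of each file's reads remained, on 36529 genes. Samples were grouped by title.

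Counts were filtered with filterByExpr, scaled by TMM within the 5 libraries and tested with edgeR 4.0.16 (quasi-likelihood F test, R 4.3.3), with Benjamini-Hochberg adjustment over all 14817 genes tested and a threshold of 0.05. Each SE is an approximation from the fold change and its F statistic. A count of 3 in a library was the floor. Intervals of counting were not used, and depth enters through the test. The nApoE4 comparison was a contrast over all 11 samples. CPM are not divided by gene length and are compared between samples only.

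Gene lists were written by hand, and lists and members were chosen with earlier results of these data known. Genes were named by rule as anchors of a list, as up to 3 called genes at either end of each list, or as the extremes over all genes in fold, in CPM, between treated libraries, at the floor and in the interaction. The genes shown with promoters were taken by fold among called genes of 10 CPM or more that hold the motif, with chromosome 18 left out. Alternatives were DESeq2 1.42.0, its size factors, other filters, thinning, all 11 samples in 1 fit, the replicate block and leaving out each library.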

Additional observations from a re-analysis of the deposited data

Results flagged for a closer look

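In 10 listed genes, 5 at either end, the response to nApoE3 differed from the response to nApoE4 in the interaction test of edgeR over all 11 samples, where each response is a log2 fold change from the fragment's own controls. Levels are group means on a scale set over the 11 libraries. Fragment and experiment cannot be told apart in any of them.

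Responses to nApoE3 were above those to nApoE4 in the following genes. Ankrd37, a hypoxia target, stood at 6.73 and 4.61 CPM without and with nApoE3 and 89.1 and 1.42 CPM without and with nApoE4, and the responses differed by 5.44 (SE 0.23, adjusted p = 8.65e-09). Its untreated level was the higher one in the nApoE4 experiment. Hmox1, the heme oxygenase, stood at 433 and 2776 CPM without and with nApoE3 and 625 and 413 CPM without and with nApoE4, and the responses differed by 3.28 (SE 0.14, adjusted p = 8.65e-09). For Slc2a1, the glucose transporter, the means were 52.7 and 159 CPM without and with nApoE3 and 233 and 91.2 CPM without and with nApoE4, and the responses differed by 2.94 (SE 0.10, adjusted p = 3.15e-09). For Ccl7, a monocyte chemokine, they were 1.44 and 53.3 CPM without and with nApoE3 and 1.93 and 9.40 CPM without and with nApoE4, and the responses differed by 2.92 (SE 0.22, adjusted p = 1.1e-06). Ifit1bl1, an interferon-stimulated gene that overlaps relatives of its own family so that its counts are uncertain, was read at 0.598 and 33.3 CPM without and with nApoE3 and 0.302 and 1.79 CPM without and with nApoE4, and the responses differed by 3.27 (SE 0.61, adjusted p = 0.00136).

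The response to nApoE3 was below that to nApoE4 in 5 others. Hc, which encodes complement component C5, was read at 0.0666 and 0.367 CPM without and with nApoE3 and 0.0293 and 13.7 CPM without and with nApoE4, and the responses differed by -6.36 (SE 0.98). Both control groups of Hc held few counts, so the size of its difference depends on the prior count of the fit. It passed the filter only through treated libraries, so its p-value is not given. Fas, the death receptor, was read at 1.29 and 25.3 CPM without and with nApoE3 and 0.271 and 25.7 CPM without and with nApoE4, and the responses differed by -2.26 (SE 0.29, adjusted p = 9.75e-05). The adaptor Ticam2 was read at 27.1 and 16 CPM without and with nApoE3 and 14.2 and 31.7 CPM without and with nApoE4, and the responses differed by -1.92 (SE 0.081, adjusted p = 8.65e-09). Levels of Trib3, a pseudokinase of the ATF4 pathway, were 44.2 and 47.6 CPM without and with nApoE3 and 69.6 and 278 CPM without and with nApoE4, and the responses differed by -1.89 (SE 0.11, adjusted p = 1.78e-07). Levels of Gadd45a, a gene of growth arrest, were 5.93 and 21.5 CPM without and with nApoE3 and 3.99 and 47.6 CPM without and with nApoE4, and the responses differed by -1.72 (SE 0.14, adjusted p = 1.53e-06). The 10 differences kept their direction and passed in each of the 148 recomputations that gave a value, over all 10 genes, with another setting or without 1 library. Hc was absent from the fit with at least 10 counts in every sample, so that setting did not check it. Groups of 2 and 3 libraries are too small for the test of a single outlying sample.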

How the results depend on the processing

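Counts of called genes held within 1.5 times in 298 of 311 recomputations that changed a setting. Over all genes tested, the calls with nApoE3 numbered 8326 with all 11 samples in 1 fit, 8895 with DESeq2, 10019 with DESeq2 size factors, 10206 with at least 1 count over the samples, 9451 with at least 10 counts in every sample and 9910 with counts thinned to the smallest library. A test against a fold of 2 itself (glmTreat) left 521 genes lower by more than 2-fold instead of 974. With at least 10 counts in every sample, which removes genes at the floor in the controls, members called were 1 for CXC chemokines, 8 for chemokine receptors, 14 for cytokines, 9 for GTPases and 0 for lymphocyte markers. CXC chemokines called were 4 with at least 1 count over the samples and 4 with DESeq2, and lymphocyte markers 0 with DESeq2. With all 11 samples in 1 fit, 10 oxidative phosphorylation subunits and 19 lysosome genes were called, and the cause was not tested.

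Leaving out 1 library at a time gave 4448 to 4807 genes higher and 4666 to 5030 lower, 1351 to 1440 higher and 935 to 972 lower by more than 2-fold, and 1493 to 2546 responses above and 1547 to 2704 below those to nApoE4. Called members ranged from 0 to 1 for neuron markers, 1 to 2 for oligodendrocyte markers, 2 to 5 for endothelial and fibroblast markers, 0 to 1 for lymphocyte markers and 1 to 2 for CXC chemokines. The fold change of Tap1 reversed to 1.82 without the second control library, and ranged from -1.37 to 1.82 over the libraries left out. In the genes the text names, 2365 of 2400 recomputed fold changes kept their direction and side of the threshold, and 29 lost and 5 gained a call, in 13 genes in all.

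Replicate numbers 1 and 2 are shared by the groups without a stated pairing, and residuals of same-numbered libraries correlated at 0.0097 and -0.012. In the nApoE4 experiment the 3 correlations were -0.068, -0.24 and -0.095. With the number as a replicate block, 9784 genes were called with nApoE3, 4777 higher and 5007 lower, while the interaction gave 1157 above and 1150 below.

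With 2 treated libraries, and none that the labels call a separate culture, the tests cover a narrow spread. Most CXC chemokines and class II genes were not tested, 3 of 15 and 6 of 12 being listed at 0 in all 5 libraries.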

Other observations

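Further genes among the 10 largest gains and losses in CPM belonged to none of the groups above or were not described with them. Plek, which encodes pleckstrin, a substrate of protein kinase C in blood cells, was at 948, 989.6 and 999 CPM in the controls and 2413 and 2358 CPM with nApoE3, a log2 fold change of 1.29 (SE 0.022, adjusted p = 1.65e-13). Spp1, which encodes osteopontin, was at 1769, 1803 and 1935 against 2976 and 2969 CPM, a log2 fold change of 0.70 (SE 0.029, adjusted p = 5.72e-10), and Mapkapk2, a kinase that stabilises cytokine transcripts, at 437, 445 and 459.7 against 1596 and 1536 CPM, a log2 fold change of 1.81 (SE 0.024, adjusted p = 2.35e-14). These genes were higher in both treated libraries than in any control. Among losses, Gpnmb, a glycoprotein of lipid-laden macrophages, was at 3276, 3225 and 3353 against 2966 and 3014 CPM, a log2 fold change of -0.14 (SE 0.018, adjusted p = 2.54e-05), and Lpl, the lipoprotein lipase, at 2754, 2589 and 2595 against 2348 and 2437 CPM, a log2 fold change of -0.15 (SE 0.026, adjusted p = 0.000334). Plxnb2, a semaphorin receptor, was at 543, 549 and 551 against 312 and 303 CPM, a log2 fold change of -0.83 (SE 0.022, adjusted p = 6.32e-12), and Erp29, a chaperone of the endoplasmic reticulum, at 582, 562 and 589.6 against 350.2 and 340.0 CPM, a log2 fold change of -0.74 (SE 0.025, adjusted p = 7.22e-11). The treated libraries were the lower ones in these 4 genes, without overlap.

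Of the 1423 genes higher by more than 2-fold, RefSeq types 1055 as protein coding and 269 as long noncoding RNA.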
